A study of Homo sapiens with 3 samples.

Results

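The amino acid transporters of the SLC7 family and the heavy chains they pair with were read in MCF10A cells, an immortalized and non-tumorigenic line of human breast epithelium. The 10 genes were taken by their symbols in GENCODE release 44, out of 62754 genes in the table. They comprise the heavy chains SLC3A2 and SLC3A1, the cationic amino acid transporters SLC7A1 and SLC7A2, and the light chains SLC7A5, SLC7A6, SLC7A7, SLC7A8, SLC7A9 and SLC7A11. Each was found by its Ensembl identifier. The genes were chosen by family and not by a measured value, though earlier results of these data were known.

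The data comprise 3 replicates of 1 condition in 1 batch. The cells carried an inducible retroviral vector (Retro-X Tet-One) without an insert and had been selected with puromycin, and neither doxycycline nor another treatment was given before harvest. The sources used here do not say whether the cells were 1 clone or whether the replicates came from separate cultures, so that the spread between them may be technical. There was no second group, so levels are compared between genes and between replicates, and no differential expression was tested. Values are given as TPM (transcript abundance per length of the gene, scaled so that each replicate has the same total of 1000000). Recovered from these values, the reads on annotated genes numbered from 11166546 to 15446347 per replicate, of which the 10 genes held between 20556 and 30165.

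SLC7 proteins carry amino acids across the plasma membrane. Most of them are light chains that do the transport but need a heavy chain, a glycoprotein to which they are linked by a disulfide bond, to reach the cell surface. SLC3A2, also known as CD98 or 4F2hc, is the heavy chain of most light chains, and SLC3A1, also known as rBAT, is that of SLC7A9 in kidney and intestine. The cationic amino acid transporters SLC7A1 and SLC7A2 bring in arginine and lysine and need no heavy chain.

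Promoter windows from RefSeq (GRCh38.p14) were read for 7 of the 10 genes, each with 250 bases before and 50 bases from the start of the gene. For SLC3A1, SLC7A2 and SLC7A11 none was read. The bases before the start are shown for the highest member, SLC7A5 (chr16:87869508-87869757, minus strand), and for SLC7A9 (chr19:32869768-32870017, minus strand), a light chain with few reads. Capitals mark the GC box GGGCGG and the E-box CACGTG, each searched on both strands.
SLC7A5: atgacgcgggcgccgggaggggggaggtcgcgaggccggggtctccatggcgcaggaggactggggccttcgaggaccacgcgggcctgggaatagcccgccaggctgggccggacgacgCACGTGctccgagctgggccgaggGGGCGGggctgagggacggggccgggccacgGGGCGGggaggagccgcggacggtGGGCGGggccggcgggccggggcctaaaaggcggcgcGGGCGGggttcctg
SLC7A9: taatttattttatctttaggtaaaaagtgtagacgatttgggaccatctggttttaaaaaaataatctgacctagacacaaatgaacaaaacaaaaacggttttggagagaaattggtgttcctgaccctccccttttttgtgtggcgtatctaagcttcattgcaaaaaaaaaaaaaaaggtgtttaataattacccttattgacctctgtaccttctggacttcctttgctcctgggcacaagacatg
The stretch of SLC7A5 held 4 GC boxes and 1 E-box, and that of SLC7A9 held neither. In the whole windows of 300 bases the share of G and C was 80.3% for SLC7A5 and 41.0% for SLC7A9, where the median of all 35116 windows was 58.7%. At the canonical start of the other members read it was 82.0% for SLC7A1, 78.7% for SLC7A6, 61.3% for SLC3A2, 54.0% for SLC7A7 and 53.0% for SLC7A8. The whole windows held 6 GC boxes and 1 E-box for SLC7A5, and 1 GC box and no E-box for SLC7A9. Those of SLC7A1, SLC3A2, SLC7A6, SLC7A8 and SLC7A7 held 6, 3, 2, 1 and 0 GC boxes and no E-box. A GC box was found in 45.0% of all windows and an E-box in 7.26%.

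The core of the amino acid response element, TGATGNAA, at which the stress factor ATF4 is known to act, was found in 3.62% of all windows. Among the windows of the members, those of SLC7A1 and SLC3A2 held 1 match each, both just after a gene start. All windows of each gene were searched. The window of SLC7A5, the highest member, held no match, nor did that of SLC3A2 at its canonical start. Each match is shown in 30 bases, in capitals. The match of SLC3A2 reads on the opposite strand.
SLC7A1: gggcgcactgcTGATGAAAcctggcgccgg
SLC3A2: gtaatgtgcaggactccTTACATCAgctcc
The site of SLC7A1 (chr13:29595663-29595692, minus strand) lay in an exon of the canonical transcript, with the match at bases 8 to 15 from the gene start. That of SLC3A2 (chr11:62881719-62881748, plus strand) lay in an intron of the canonical transcript, at bases 38 to 45 from a start 803 bases downstream of the canonical one. A match describes letters only, and whether a factor bound there was not measured.

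The antioxidant response element core TGACNNNGC, found in 13.3% of all windows, had 2 matches in the window of SLC7A6 and 1 each in those of SLC7A1 and SLC7A5, taking for each gene the window at its canonical start. The ratio of observed to expected CpG in these windows was 1.04 for SLC7A6, 0.980 for SLC7A5, 0.975 for SLC7A1, 0.682 for SLC7A8, 0.608 for SLC3A2, 0.556 for SLC7A9 and 0.0469 for SLC7A7. The median of all windows was 0.579. The window of SLC7A7 was thus the poorest in CpG of the 7, while that of SLC7A9, also a gene with hardly a read, lay near the median.

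By the mean of the replicates, 7 of the 10 genes reached 1 TPM, the cutoff the study used for an expressed enzyme. The same 7 passed it in every replicate. By the mean, 24.9% of all genes passed this cutoff, and of protein-coding genes 56.7% did so by the mean and 55.2% in every replicate. The median of the 10 mean levels was 36.4 TPM, and that of the 20046 protein-coding genes was 3.75 TPM. Levels spanned from SLC7A5, 192nd of the protein-coding genes, to SLC3A1 without a read. In bulk RNA, fewer cells with a transcript and less of it per cell cannot be told apart.

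**Figure D1:**
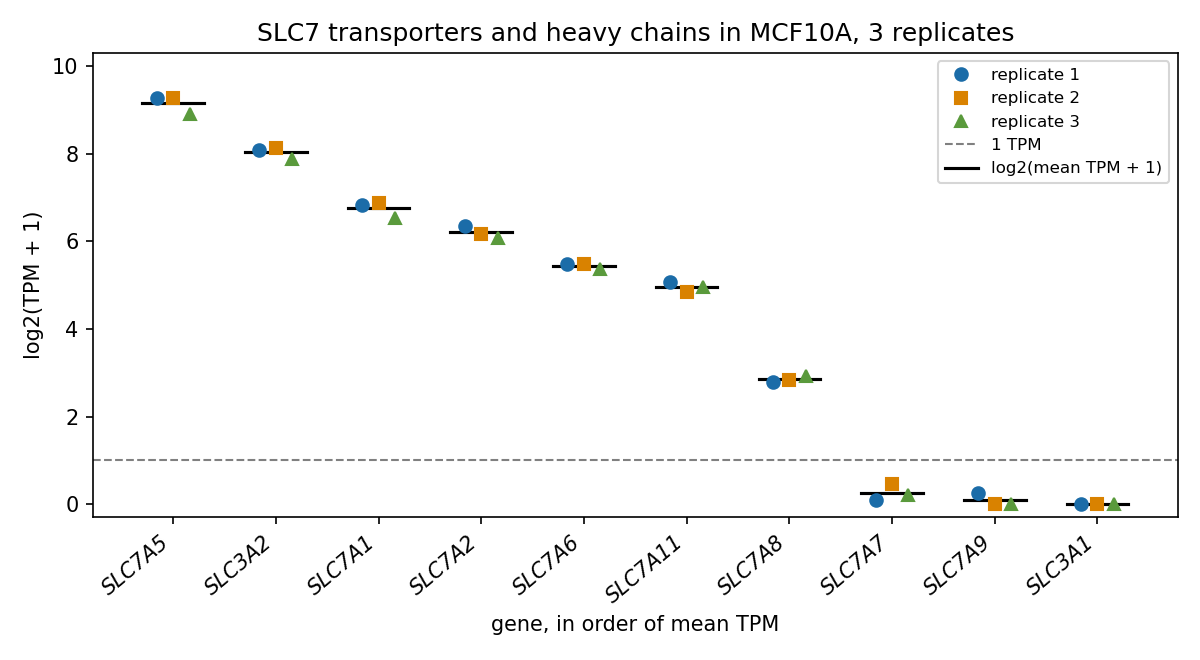
TPM of the 10 genes in each of the 3 replicates as log2(TPM + 1), in order of the mean, with black bars at the log2 of the mean TPM plus 1 and a dashed line at 1 TPM. The 7 genes from SLC7A5 to SLC7A8 lie above the line in every replicate, and SLC7A7, SLC7A9 and SLC3A1 lie below it in every replicate.

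SLC3A2 (ENSG00000168003, chromosome 11 of hg38 from 62856004 to 62888880, plus strand) was the heavy chain whose transcripts were detected. It was measured at 271, 279 and 233 TPM in replicates 1, 2 and 3, a mean of 261 ± 24.8 TPM (SD, n = 3). Replicate 3 was the lowest. This placed it 507th of the protein-coding genes.

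The other heavy chain, SLC3A1 (ENSG00000138079, chromosome 2 from 44275458 to 44321494, plus strand), had 0 reads in each replicate. A count of 0 was given the limit of 3 reads, which for this gene allows up to 0.192, 0.187 and 0.226 TPM. Of all protein-coding genes 26.2% were at 0 in every replicate. The zero of SLC3A1 rests on few bases of its own. Of its canonical transcript 59.3% is shared with a readthrough gene on the same strand, which also had 0 reads, and 43.0% overlaps exons of PREPL on the opposite strand. Over the 1208 bases not shared on its own strand, 3 reads correspond to between 0.458 and 0.554 TPM, and 42 bases are shared with no gene on either strand. PREPL, which overlaps it in antisense, was measured at 38.8 ± 4.76 TPM (SD, n = 3). Whether strand was used in counting is not given in the sources used here. If reads overlapping a gene on either strand were left out, the limit over the 42 bases would be far higher than these and above 1 TPM. In that case SLC3A1 could not be placed below the cutoff of 1 TPM.

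Of the light chains that pair with SLC3A2, SLC7A5 was by far the highest. SLC7A5, also known as LAT1, exchanges glutamine for large neutral amino acids such as leucine (ENSG00000103257, chromosome 16 from 87830023 to 87869507, minus strand). It was measured at 622, 617 and 477 TPM, a mean of 572 ± 82.2 TPM (SD, n = 3), from 14898, 15187 and 9721 reads. Replicates 1 and 2 lay close together and replicate 3 was lower than both. Its SD of log2(TPM + 1), 0.22, was the largest among the 10 genes, where the median for the 1468 protein-coding genes from 100 to 1000 TPM was 0.15.

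SLC7A5 has partial copies in the genome. Of the words of 50 bases in its canonical transcript, 4.02% occur in the pseudogene SLC7A5P2 and 0.71% in SLC7A5P1, and both pseudogenes had 0 reads in every replicate. The same words also occur in unnamed genes, of which ENSG00000291073 (4.02%) had 18, 22 and 8 reads and ENSG00000288632 (0.71%) had 1 read, in replicate 2. A noncoding gene on the opposite strand overlaps 2.55% of it. How reads that match several genes were counted is not given in the sources used here, and the level of SLC7A5 is uncertain by that part.

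SLC7A6, or y+LAT2, takes up glutamine and other neutral amino acids in exchange for arginine (ENSG00000103064, chromosome 16 from 68264516 to 68301823, plus strand). It was measured at 43.7, 43.7 and 40.1 TPM, a mean of 42.5 ± 2.06 TPM (SD, n = 3). It had the lowest relative spread of the genes with reads, a coefficient of variation of 4.86%. Of its canonical transcript 59.9% overlaps other genes on the opposite strand, mainly SLC7A6OS, itself at 13.4 ± 1.92 TPM (SD, n = 3). If reads on these bases were left out in counting, the level of SLC7A6 would be understated. Its place in the order below and its share of the light chains depend on this, which was not tested.

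SLC7A11, or xCT, brings in cystine in exchange for glutamate and so supplies glutathione synthesis (ENSG00000151012, chromosome 4 from 138164097 to 138242349, minus strand). It was measured at 32.8, 27.8 and 30.2 TPM, a mean of 30.3 ± 2.47 TPM (SD, n = 3). Unlike SLC3A2 and SLC7A5, it was lowest in replicate 2. The antisense gene SLC7A11-AS1, which overlaps 8.97% of its canonical transcript, had 0 reads.

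SLC7A8, or LAT2, is a second exchanger of neutral amino acids and was much lower than SLC7A5 (ENSG00000092068, chromosome 14 from 23125295 to 23183674, minus strand). It was measured at 5.93, 6.12 and 6.65 TPM from 132, 140 and 126 reads, a mean of 6.23 ± 0.375 TPM (SD, n = 3). The exact Poisson intervals (95%), which cover counting error only, reached from 4.96 to 7.03, from 5.15 to 7.22 and from 5.54 to 7.92 TPM and overlapped. SLC7A5 was 105-fold, 101-fold and 71.7-fold above SLC7A8 in replicates 1, 2 and 3. Another gene on the same strand shares 6.54% of its canonical transcript.

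SLC7A7, or y+LAT1, the exporter of arginine and lysine in gut and kidney epithelium, was near the limit of detection (ENSG00000155465, chromosome 14 from 22773222 to 22829820, minus strand). Its values of 0.0631, 0.368 and 0.148 TPM came from 1, 6 and 2 reads. The exact Poisson interval (95%) was widest in replicate 2, from 0.135 to 0.801 TPM, and it stayed below 1 TPM in each replicate. The intervals of the 3 replicates overlapped, so a difference between them was not detectable at this depth.

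SLC7A9, the partner of SLC3A1, had 2 reads in replicate 1 and none in replicates 2 and 3 (ENSG00000021488, chromosome 19 from 32830509 to 32869767, minus strand). The value in replicate 1 was 0.191 TPM (exact Poisson interval, 95%, from 0.0231 to 0.689), and 0 reads allow up to 0.278 TPM in replicate 2 and 0.336 TPM in replicate 3. The transporter of SLC3A1 and SLC7A9 takes up cystine and dibasic amino acids in the kidney tubule. As counted, both of its chains were below 1 TPM in every replicate. For SLC3A1 this depends on how reads on shared bases were counted, as given above. The kidney tubule genes SLC12A3, with 0 reads, and SLC34A1, with at most 2 reads in a replicate, were low as well.

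Transcripts of both cationic amino acid transporters were detected. SLC7A1, or CAT1, the widespread arginine and lysine transporter (ENSG00000139514, chromosome 13 from 29509414 to 29595688, minus strand), was measured at 114, 117 and 91.9 TPM, a mean of 108 ± 13.7 TPM (SD, n = 3). SLC7A2, or CAT2, known from liver, muscle and activated macrophages (ENSG00000003989, chromosome 8 from 17497088 to 17570573, plus strand), was measured at 80.0, 71.2 and 66.9 TPM, a mean of 72.7 ± 6.66 TPM (SD, n = 3). SLC7A1 was above SLC7A2 in every replicate, by 1.42-fold, 1.65-fold and 1.37-fold, and the ranges of both genes did not overlap. Neither gene shares exonic bases with another annotated gene.

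Ordered by mean TPM, the genes ran SLC7A5, SLC3A2, SLC7A1, SLC7A2, SLC7A6, SLC7A11, SLC7A8, SLC7A7, SLC7A9 and SLC3A1. A pair of neighbours was called separated when the higher gene was higher in every replicate and the difference of mean log2(TPM + 1) exceeded the root of the summed squared SDs. By this description, with no test, 7 of 9 pairs were separated. The separated pair with the smallest difference was SLC7A6 above SLC7A11, at 0.48 on the log2 scale with a spread of 0.13. Relative to its spread, SLC7A1 above SLC7A2 was the closest, at a difference of 0.56 and a spread of 0.23. SLC7A7 and SLC7A9 did not differ beyond their spread (difference 0.16, spread 0.24), nor did SLC7A9 and SLC3A1 (difference 0.084, spread 0.15). With 3 replicates an exact sign-flip test could not go below p = 0.25, so the order is given as a description.

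The level of the heavy chain was set beside the sum of its light chains within each replicate, the sum taking SLC7A5, SLC7A6, SLC7A7, SLC7A8, SLC7A10 and SLC7A11. SLC3A2 stood at 0.385, 0.402 and 0.420 of this sum, a mean of 0.402 ± 0.0177 (SD, n = 3). The transcripts of the light chains together thus outnumbered those of the heavy chain in every replicate. SLC7A5 made up 88.3%, 88.8% and 86.1% of the sum (87.7% ± 1.43, SD, n = 3). SLC7A6 made up 6.58% ± 0.577, SLC7A11 4.70% ± 0.723 and SLC7A8 0.974% ± 0.197 (SD, n = 3 each). SLC7A5 alone was above SLC3A2 by 2.29-fold, 2.21-fold and 2.05-fold. Ratios of transcripts are not ratios of protein, which was not measured.

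**Figure D2:**
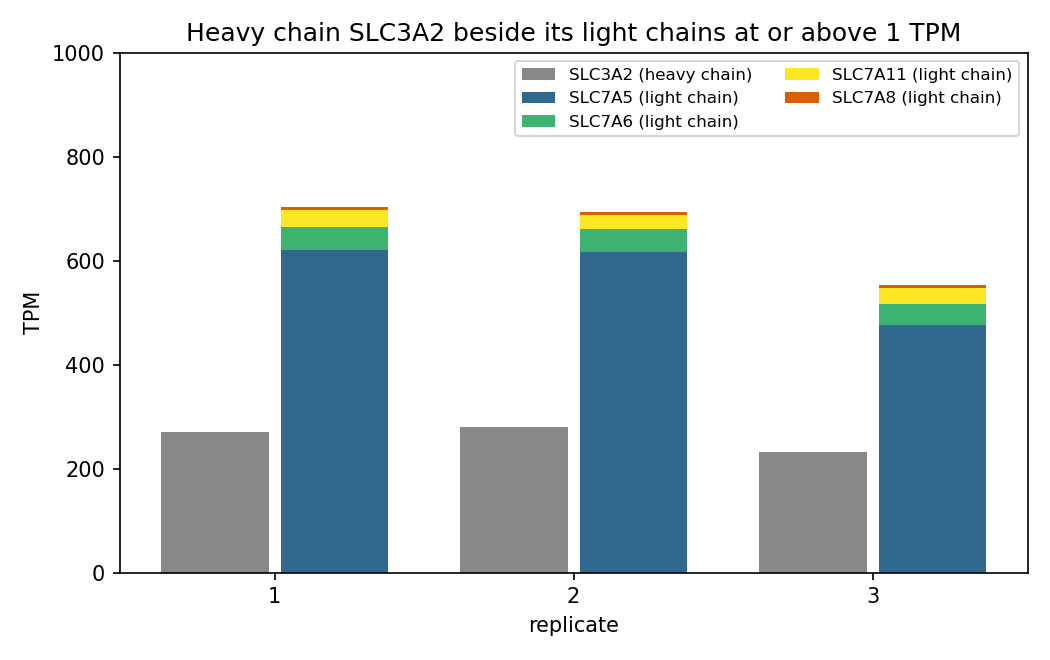
TPM of the heavy chain SLC3A2 (grey bars) beside the stacked TPM of its light chains at or above 1 TPM, SLC7A5, SLC7A6, SLC7A11 and SLC7A8, in each of the 3 replicates. The stack is taller than the grey bar in each replicate, and SLC7A5 makes up between 86.1% and 88.8% of the light chains.

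This ratio rests on gene lengths. The deposited TPM of SLC3A2 used a length of 2836 bases, that of a retained-intron transcript less 1 base per exon, where its canonical transcript has 1885 bases. For SLC7A5 the length used, 4546 bases, was that of the canonical transcript less its 10 exon ends, and for SLC7A11 it was 9633 bases, of which 1503 are coding. With canonical lengths SLC3A2 rose to 321 ± 26.6 TPM (SD, n = 3) and to 0.606 ± 0.0266 of the light chains (SD, n = 3). SLC7A5 was then 1.45-fold above it (mean of 3 replicates). With each length the replicates were rescaled to the same total, so TPM values also moved with those of all other genes, while ratios within a replicate did not. With coding lengths SLC3A2 stood at 0.223 ± 0.00862 of the light chains (SD, n = 3). The ratio was below 1 and SLC7A5 was the highest gene in every replicate with each of the 3 lengths.

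Among the lower genes, coding length turned the order of SLC7A6 and SLC7A11. SLC7A11 was then measured at 84.7, 73.7 and 89.8 TPM and SLC7A6 at 71.8, 73.7 and 75.9 TPM, with overlapping ranges. SLC7A11 was the higher in replicates 1 and 3, while in replicate 2 the genes were nearly equal, at 73.74 and 73.71 TPM. SLC3A2 and SLC7A1 moved close together, at 198 ± 7.10 and 177 ± 11.3 TPM (SD, n = 3 each). Reads from untranslated parts are counted too, so that coding length overstates genes with long untranslated ends.

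**Figure D3:**
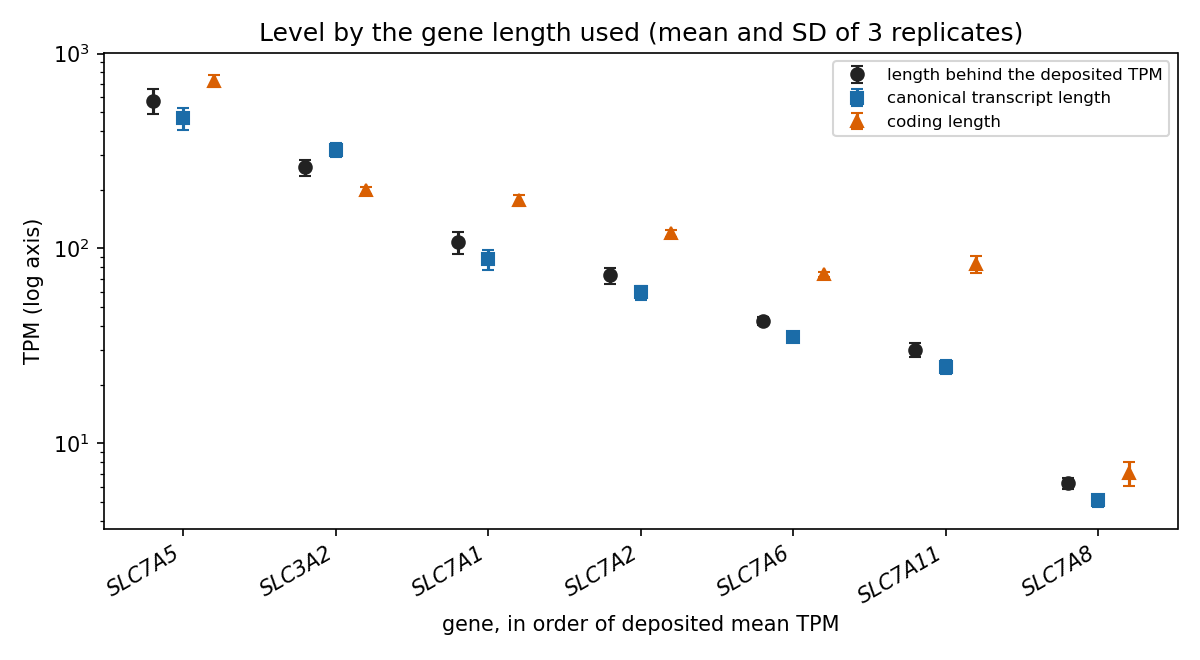
Mean TPM with SD over 3 replicates, on a log axis, of the 7 genes at or above 1 TPM, with the gene length behind the deposited values (circles), the canonical transcript length (squares) and the coding length (triangles). SLC3A2 is highest with the canonical length at 321 TPM, SLC7A5 stays on top with all 3 lengths, and SLC7A11 passes SLC7A6 with coding length only.

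The other 5 genes of the SLC7 family were not detected or nearly so. SLC7A3, SLC7A4, SLC7A10 and SLC7A13 had 0 reads in each replicate, and SLC7A14 had 1 read in replicate 3 only. SLC7A10, the remaining light chain of SLC3A2 and known from brain, thus added nothing to the sum above.

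Of 25 other amino acid transporters of the plasma membrane, 10 were at or above 1 TPM and 10 had 0 reads in every replicate. Among all protein-coding genes the shares were 56.7% and 26.2%. The highest were SLC1A5, the glutamine transporter ASCT2, at 352 ± 42.6 TPM, and the sodium-coupled neutral amino acid transporters SLC38A2 at 345 ± 38.9 and SLC38A1 at 215 ± 23.4 TPM (SD, n = 3 each). In an order of 38 transporters, heavy chains left out, SLC7A5 came first, SLC7A1 5th, SLC7A2 6th, SLC7A6 8th, SLC7A11 9th and SLC7A8 12th. SLC7A5 lay above SLC1A5 in every replicate, with ranges that did not overlap. This order rests on the deposited TPM, and other gene lengths were not tried for the transporters outside the members.

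**Figure D4:**
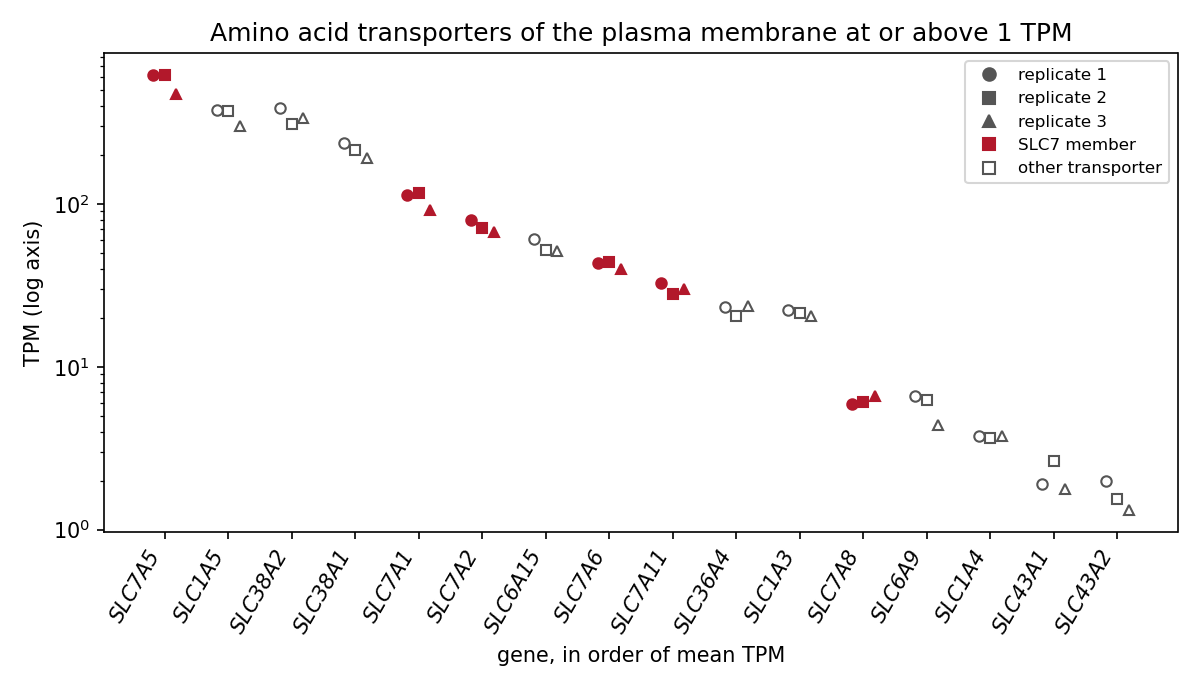
TPM on a log axis of the amino acid transporters of the plasma membrane whose mean reached 1 TPM, each replicate shown, with SLC7 genes filled in red and other transporters open. SLC7A5 stands above SLC1A5 and SLC38A2 in every replicate, and the 6 SLC7 genes shown run from 572 TPM for SLC7A5 to 6.23 TPM for SLC7A8 by the mean.

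The transporters closest in level were found among 31 other genes by the largest absolute difference of log2(TPM + 1) over the 3 replicates. It was SLC38A1 for SLC3A2 (0.37), SLC1A5 for SLC7A5 (0.73), MFSD12, needed for cysteine import into lysosomes, for SLC7A1 (0.41) and SLC7A2 (0.38), SLC6A15 for SLC7A6 (0.48), SLC36A1 for SLC7A11 (0.36) and the lysosomal cystine exporter CTNS for SLC7A8 (0.43). These levels are the deposited TPM, which for SLC3A2 used the retained-intron length, and other lengths were not tried here. With 3 replicates of 1 condition this is a likeness in level, not in regulation.

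Transcripts of the 4 genes whose proteins are known to bind SLC3A2 or its heteromers were all at or above 1 TPM, as were 56.7% of protein-coding genes. The integrin subunit ITGB1 was measured at 520 ± 55.0 TPM, the lactate transporter chaperone BSG at 498 ± 47.5, the hyaluronan receptor CD44, known to stabilize SLC7A11, at 382 ± 42.3 and LAPTM4B, which brings SLC7A5 to lysosomes, at 219 ± 6.62 TPM (SD, n = 3 each). Over the replicates they ranged from 213 TPM for LAPTM4B in replicate 3 to 583 TPM for ITGB1 in replicate 1.

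Replicate 3 held less of most genes by TPM. The short RNA RN7SL1 took 15.1% of its TPM, against 4.93% and 5.66% in replicates 1 and 2. Of the 8364 protein-coding genes whose mean was 10 TPM or more, 84.3% were lowest in replicate 3 and 94.5% lower there than in replicate 1, with a median log2 ratio of -0.25. Of the 6 members at this level, 5 were lowest in replicate 3 and 6 lower than in replicate 1. The log2 ratio of replicate 3 to replicate 1 was -0.38 for SLC7A5, -0.30 for SLC7A1, -0.26 for SLC7A2, -0.22 for SLC3A2, -0.12 for SLC7A6 and -0.12 for SLC7A11. For SLC7A8 it was 0.17, from 132 and 126 reads. With TPM rescaled to nuclear protein-coding genes the ratio stayed below 0 for SLC7A5 at -0.17, for SLC7A1 at -0.09 and for SLC7A2 at -0.04, was -0.0035 for SLC3A2, turned above 0 for SLC7A6 at 0.09 and SLC7A11 at 0.10, and was 0.38 for SLC7A8. The part of the short RNA in these differences was not tested.

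**Figure D5:**
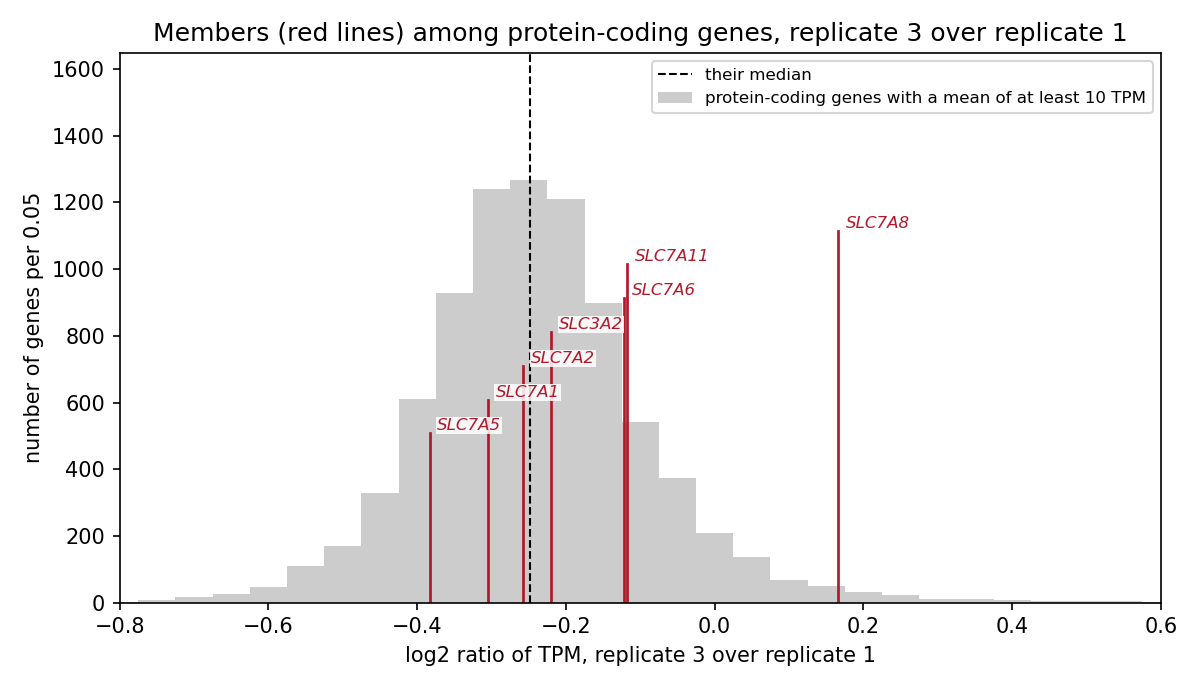
Histogram of the log2 ratio of TPM in replicate 3 to replicate 1 for protein-coding genes whose mean was 10 TPM or more (grey, number of genes per 0.05, dashed line at the median of -0.25), with the 7 members at or above 1 TPM as red lines whose heights only separate the labels. SLC7A5 lies left of the median at -0.38 and SLC7A8 alone right of 0, at 0.17.

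The labelled cell type was read from 7 epithelial markers, each past 1 TPM, with the basal keratin KRT5 at 6612 ± 890 and EPCAM at 14.6 ± 1.19 TPM (SD, n = 3 each). KRT14, KRT17, TP63, CDH1 and CDH3 lay between 29.1 TPM for CDH1 and 4144 TPM for KRT14. Of 9 markers of other cells, 2 were at or above 1 TPM, COL1A1 at 4.96 ± 0.390 and PECAM1 at 1.77 ± 0.190 TPM (SD, n = 3 each). The summed level of these 9 markers was 8.02, 6.82 and 6.76 TPM. PTPRC, COL3A1, PDGFRB, ESR1 and PGR were below 1 TPM, of which ESR1 had 3 reads, all in replicate 3.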

How the data were processed

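RNA of MCF10A cells was sequenced in 3 replicates (EV) from 300 ng of RNA after ribosomal depletion. The authors mapped reads to hg38, counted them with Seq2science and deposited TPM for 62754 genes. The submitters' processing notes name STAR, fastp, MultiQC and GRCh38.p14. Which annotation release was counted, and whether by strand, is not given in the sources used here. Columns were matched to samples by library name, and none was left out.

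Positions and lengths came from GENCODE release 44, which held 62700 of the genes. TPM times the length of a gene's longest transcript, less 1 base per exon, divided by its smallest value above 0 in a replicate, gave whole numbers within 0.01 for 100% of genes above 0, taken as reads (15273329, 15446347 and 11166546 per replicate). These totals assume a smallest step of 1 read. On reads simulated for 62700 genes, 100% were returned. The simulation used the same lengths in both directions, so it checks the arithmetic and not the lengths or the step.

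The 10 genes, the other lists and the markers were chosen with earlier results of these data known. All listed genes of the SLC7 family, binding proteins, overlapping genes and markers were named. The 3 highest other plasma membrane transporters, the highest lysosomal one and the closest in level to each member were also named. RN7SL1 and the unnamed genes that overlap or share words with members were chosen after their values were seen. No group was compared and no test was run. Replicate values, SDs, exact Poisson intervals and the limit of 3 reads were computed with a pseudocount of 1 on the log2 scale. Alternatives covered the replicates, the cutoff, the scaling, the gene length, the partners summed and the pseudocount. Scripts ran in Python 3.11.15 with scipy 1.17.1 for intervals, pandas 2.3.3, numpy 2.4.6 and, for plots, matplotlib 3.10.9.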

Additional observations from a re-analysis of the deposited data

How the results depend on the processing

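No paired analysis was possible because only 1 condition was sampled, in 3 replicates. The count of 7 genes at or above the cutoff held under every alternative tried. None of these varied how reads on bases shared between genes were counted. SLC3A2 stood at 0.402 of the summed light chains, and at 0.606 with canonical transcript lengths, 0.223 with coding lengths and 0.422 without SLC7A11 in the sum. The share of SLC7A5 was 87.7%, and 81.5% with coding lengths. The 2 neighbouring pairs that were not separated became 1 without replicate 1, where SLC7A9 has no read left, and were 2 without replicate 2 or 3.

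For the 7 genes at or above 1 TPM, the mean moved by more than 1 SD with each change of scale. This follows by construction, since each change rescales all genes of a replicate, and other lengths also divide each gene anew. SLC7A5 thus fell with canonical lengths though its own length went only from 4546 to 4556 bases. With nuclear protein-coding genes summing to 1000000, the means were 703 for SLC7A5, 322 for SLC3A2, 132 for SLC7A1, 89.7 for SLC7A2, 52.6 for SLC7A6, 37.5 for SLC7A11 and 7.75 for SLC7A8. With canonical lengths they were 467, 321, 87.8, 59.5, 35.0, 24.7 and 5.09 in the same order of genes, and with coding lengths 724, 198, 177, 119, 73.8, 82.7 and 7.03. In all, 26 values moved and 77 did not. Depth limits SLC7A7 and SLC7A9, with 9 and 2 reads in all.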

Other observations

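Most of the 6 amino acid transporters of the lysosome in the list export amino acids or cystine from the lysosome to the cytosol. All 6 were at or above 1 TPM, as were 56.7% of protein-coding genes. MFSD12 was the highest at 85.2 ± 7.59 TPM (SD, n = 3), and SLC36A1, SLC66A1, SLC38A7, SLC38A9 and CTNS lay between 8.01 TPM for CTNS and 26.2 TPM for SLC36A1. Their summed level was 165, 176 and 142 TPM in replicates 1, 2 and 3, and that of the 10 SLC7 and heavy chain genes was 1169, 1162 and 946 TPM.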
